A study of Homo sapiens with 10 samples.

Results

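The array labelled AD32 4E-BP1 was compared with the 3 arrays of the discodermolide-resistant line AD32, so 4 of the 10 arrays of the study enter the comparison directly. The arrays were chosen by the cell line named in their labels. AD32 (n = 3) was grown in 32 nM discodermolide and is labelled resistant. AD32 4E-BP1 (n = 1) was kept in 0.01% DMSO and is labelled sensitive. The other arrays were of A549, the human lung adenocarcinoma line from which AD32 is known to derive, in 0.01% DMSO (n = 4, labelled sensitive) or in 32 nM discodermolide (n = 2, labelled senescent). All lines shared one serum-containing medium. The sources used here do not say how 4E-BP1 was introduced, whether AD32 4E-BP1 is 1 clone, or how long it was kept without drug. The name of the line, the absence of drug and the single culture therefore cannot be told apart in any difference from AD32. The origin of the array cannot be told apart from them either. Its profile, given below, lay nearest to an A549 in DMSO array, and whether its label or parental line is right was not tested.

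Discodermolide is a marine natural product that binds and stabilises microtubules, and it arrests cells in mitosis or drives them into senescence. 4E-BP1, encoded by EIF4EBP1, binds the cap-binding protein eIF4E and keeps it from joining eIF4G in the eIF4F complex, which represses cap-dependent translation. Phosphorylation by mTOR releases 4E-BP1 from eIF4E. Because the repressor acts on translation, arrays of transcript level read its own mRNA and any later change in RNA abundance, not its direct effect.

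The profile of the array labelled AD32 4E-BP1 lay nearer to A549 in DMSO replicates 2, 3 and 4 than to any AD32 array. Over 18279 genes it differed least from A549 in DMSO replicate 2, with a standard deviation of gene-by-gene log2 differences of 0.219 (Pearson r = 0.995 across genes, a description of arrays that share platform and scale). Against the AD32 arrays the standard deviation was 0.794, 0.758 and 0.451 for replicates 1, 2 and 3. A549 in DMSO replicates 2 and 3, which carry the same label, differed from each other by 0.312. This measure did not sort all arrays by line. AD32 replicate 3 lay nearer to A549 in DMSO replicate 2 (0.470) than to AD32 replicates 1 and 2 (0.675 and 0.630). A549 in DMSO replicate 1 lay nearer to AD32 replicate 1 (0.613) than to A549 in DMSO replicate 2 (0.656). Of all genes, 50 lay at least 2-fold apart between the lone array and A549 in DMSO replicate 2, whereas 2201, 2262 and 613 genes did so between it and the 3 AD32 arrays. The library is called the array labelled AD32 4E-BP1, or the lone array, throughout. The cause of its A549-like profile was not tested, and every direction below is drawn from it.

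Other arrays also stood apart within their groups. AD32 replicate 3 and AD32 replicate 1 lay at least 2-fold apart for 1517 genes, and A549 in DMSO replicates 1 and 2 for 1731. A549 in DMSO replicates 3 and 4 were nearly identical, with 1 gene at least 2-fold apart. An alternative fit used below gave each array a weight, largest for this pair (2.92 and 4.64) and 0.184 to 1.52 on the others. A pass with these array weights is therefore no independent support. Array medians lay between 6.50 and 6.63 and lower quartiles between 4.77 and 4.94 on the log2 scale. Markers of fibroblasts, leukocytes, endothelium and liver cells had 0 of 33 measured members called, that is, with a limma adjusted p under 0.05 against AD32, beside 0.919% of all genes, with PTPRC at 2.89 and ALB at 3.31 on the lone array. Other members were well expressed there and in the A549 in DMSO arrays, such as the macrophage marker CD68 (10.02 on the lone array, 9.25 to 10.71 in A549 in DMSO) and the fibroblast genes COL3A1 (8.0 and 7.62 to 8.78) and FBN1 (7.11 and 6.26 to 6.96). Against AD32, FBN1 was 3.88-fold lower (adjusted p = 0.0548) and passed under 5 alternatives, among them without AD32 replicate 3 (adjusted p = 0.0331) or A549 in DMSO replicate 1 (0.0333). COL3A1 was 3.45-fold higher (adjusted p = 0.216) and passed with array weights (0.0337). The part of such genes in the results was not tested. The lung epithelial keratins KRT8 and KRT18 were high on it, at 13.14 and 13.55. EPCAM, another epithelial marker, was low there (3.40) and on the other 9 arrays (3.30 to 3.87).

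Promoters of 4 genes are shown, the called genes with the widest gap between the lone array and the nearest AD32 array in each direction. MAGEB2 and SERPINB5 were lower on the lone array than in AD32, and EPHA3 and NTRK3 were higher. The genes were chosen after their values were seen. Each stretch is the 250 bases before the RefSeq start on GRCh38.p14, at chrX:30215313-30215562 (plus strand), chr18:63476708-63476957 (plus strand), chr3:89107371-89107620 (plus strand) and chr15:88256740-88256989 (minus strand). Capitals mark CG dinucleotides, the sites of DNA methylation in mammals.
MAGEB2: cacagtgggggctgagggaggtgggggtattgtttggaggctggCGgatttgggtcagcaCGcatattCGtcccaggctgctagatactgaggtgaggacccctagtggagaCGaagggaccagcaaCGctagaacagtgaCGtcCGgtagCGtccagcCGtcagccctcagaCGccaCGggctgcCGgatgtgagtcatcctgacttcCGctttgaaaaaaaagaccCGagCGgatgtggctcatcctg
SERPINB5: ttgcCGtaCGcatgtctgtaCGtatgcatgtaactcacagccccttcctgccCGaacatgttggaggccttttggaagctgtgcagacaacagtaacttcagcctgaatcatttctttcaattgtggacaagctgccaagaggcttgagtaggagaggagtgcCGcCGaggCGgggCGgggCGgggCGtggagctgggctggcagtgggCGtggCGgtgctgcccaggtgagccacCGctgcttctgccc
EPHA3: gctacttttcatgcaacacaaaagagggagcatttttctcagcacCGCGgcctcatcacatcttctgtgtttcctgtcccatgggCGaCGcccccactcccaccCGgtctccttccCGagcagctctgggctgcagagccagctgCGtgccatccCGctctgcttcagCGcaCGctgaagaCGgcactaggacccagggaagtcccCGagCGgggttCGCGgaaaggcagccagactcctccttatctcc
NTRK3: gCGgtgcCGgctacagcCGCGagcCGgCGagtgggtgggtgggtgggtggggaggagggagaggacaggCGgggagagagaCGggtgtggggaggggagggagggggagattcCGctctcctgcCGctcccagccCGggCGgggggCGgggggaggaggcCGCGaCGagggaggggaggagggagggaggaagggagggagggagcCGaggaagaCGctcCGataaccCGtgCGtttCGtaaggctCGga

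The MAGEB2 stretch held 15 CG dinucleotides, SERPINB5 13, EPHA3 15 and NTRK3 23. Of 35116 RefSeq promoter stretches of the same length, 42.9% held at least 15, 46.6% at least 13 and 25.8% at least 23. MAGEB2, high in AD32, and EPHA3, low in it, held the same number. Methylation was not measured here.

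EIF4EBP1, the gene for which the line is named, was read first. Its level on the log2 scale was 8.93, 7.99 and 8.63 on the AD32 arrays and 11.61 on the lone array. A549 stood between them, at 10.23, 9.50, 9.47 and 9.52 in DMSO and at 9.76 and 9.58 in discodermolide. EIF4EBP1 was 8.52-fold higher on the lone array than in AD32 (log2 difference 3.09, SE 0.39, limma adjusted p = 0.00708, 1 array against 3). The SE takes the spread of the replicated groups, since 1 array has none, and with only the compared groups fitted the call ended (adjusted p = 0.15). Against A549 in DMSO the log2 difference was 1.93 (SE 0.38) and did not pass.

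EIF4EBP1 was also the gene that set the lone array furthest above all others. It lay 1.38 above the highest of the other 9 arrays on the log2 scale, first of 18279 genes. DOCK2, a guanine nucleotide exchange factor best known from leukocytes, came second with 0.67, followed by GLI3, a transcription factor of hedgehog signalling, with 0.66. Of all genes, 4.56% were above and 7.11% below the other 9 arrays. A distance of 1 or more was reached by 1 gene above (0.00547%) and 1 gene below (0.00547%). The gene below was PTGS2, encoding the prostaglandin synthase COX-2, at 7.57 against 8.65 to 11.29 on the others. This ranking was chosen after the data were seen.

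**Figure D1:**
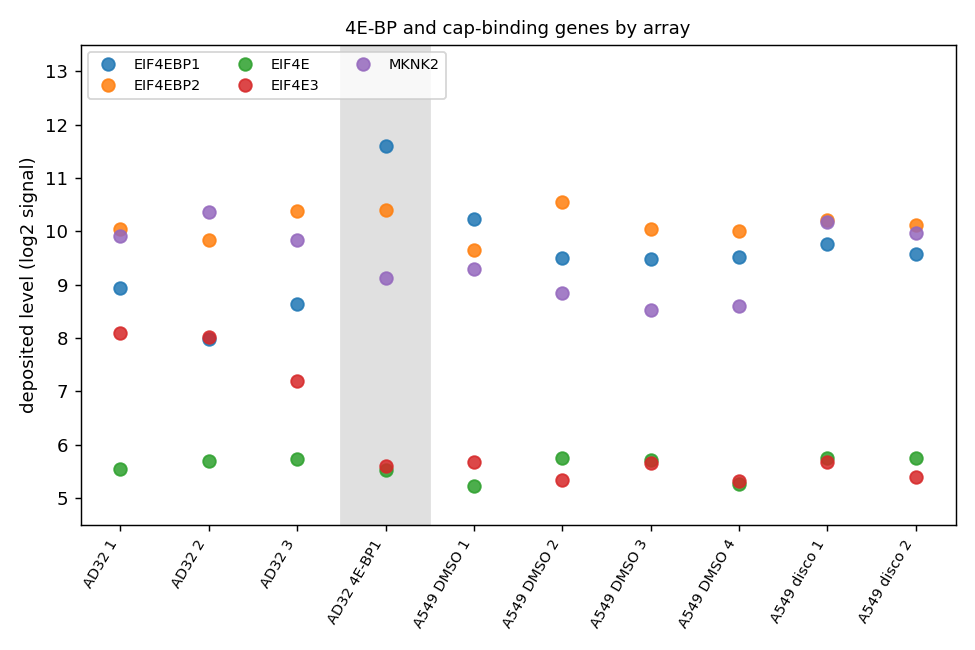
Deposited log2 signal of 5 genes of the 4E-BP and cap-binding system on each of the 10 arrays, 1 point per gene and array, with the lone array shaded. EIF4EBP1 stands at 11.61 on the shaded array and at 10.23 or lower elsewhere, and EIF4E3 is above 7 only on the AD32 arrays.

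Among the other genes of cap-dependent translation and mTOR signalling, EIF4E3 fell. EIF4E3 encodes a cap-binding relative of eIF4E, and its level was 8.08, 8.03 and 7.18 on the AD32 arrays and 5.60 on the lone array (4.48-fold lower, SE 0.35 on the log2 scale, limma adjusted p = 0.0247). The lone array lay within the A549 in DMSO range of 5.31 to 5.67. The EIF4E3 call was lost under 10 of 18 alternatives, among them without any 1 of AD32 replicates 1 and 2, A549 in DMSO replicates 2, 3 and 4 and either A549 in discodermolide array.

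Of 26 measured genes of this list, 1 was called higher (EIF4EBP1) and 1 lower (EIF4E3). The background over all genes was 0.339% called higher and 0.58% called lower. The list median was -0.00 on the log2 scale beside -0.03 over all genes. EIF4EBP2, the second 4E-BP gene, was at 10.05, 9.84 and 10.38 in AD32 and 10.40 on the lone array (adjusted p = 0.855). EIF4E itself was at 5.53, 5.70 and 5.73 in AD32 and 5.52 on the lone array (adjusted p = 0.944). MKNK2, a kinase that phosphorylates eIF4E, was at 9.90, 10.37 and 9.84 and at 9.12, below all AD32 arrays without passing (adjusted p = 0.363). It passed with array weights (1.98-fold lower, limma adjusted p = 0.033). EIF4G1, MTOR and RPTOR differed by 0.51, 0.21 and 0.08 on the log2 scale, none of them called.

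Transcripts often described as sensitive to eIF4E had 0 of 20 members called, beside 0.919% of all genes. Of them 4 lay above and 5 below all AD32 arrays, beside 23.9% and 27.7% of all genes. Their median difference was 0.25 on the log2 scale. MYC, a growth-promoting transcription factor, was at 8.68, 8.18 and 9.93 in AD32 and 9.63 on the lone array, within the AD32 range (adjusted p = 0.761). It passed without AD32 replicate 3 (2.29-fold higher, adjusted p = 0.0345). ODC1 and VEGFA, genes of polyamine synthesis and of angiogenic signalling, differed by 0.68 and -0.80 and were not called.

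Across all genes, 168 of 18279 passed the limma threshold between the lone array and AD32 (0.919%), 62 higher and 106 lower. All 168 lay outside the range of the 3 AD32 arrays and 165 differed at least 2-fold. The position outside all AD32 arrays is common for 1 array against 3, with 23.9% of genes above and 27.7% below. With a fold of at least 2 the share was 6.61%, with 669 genes higher (3.66%) and 539 lower (2.95%). That count of 1208 rose to 2064 without AD32 replicate 3. An unadjusted p under 0.05 was reached by 1730 genes (9.46%). The number called depended on which arrays set the spread: 99 without A549 in DMSO replicate 4 or with replicates 3 and 4 averaged, 103 without replicate 3, 112 without replicate 2, 262 without replicate 1, 113 without AD32 replicate 2, 108 without either A549 in discodermolide array and 656 without AD32 replicate 3. With only the compared groups fitted it was 13.

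**Figure D2:**
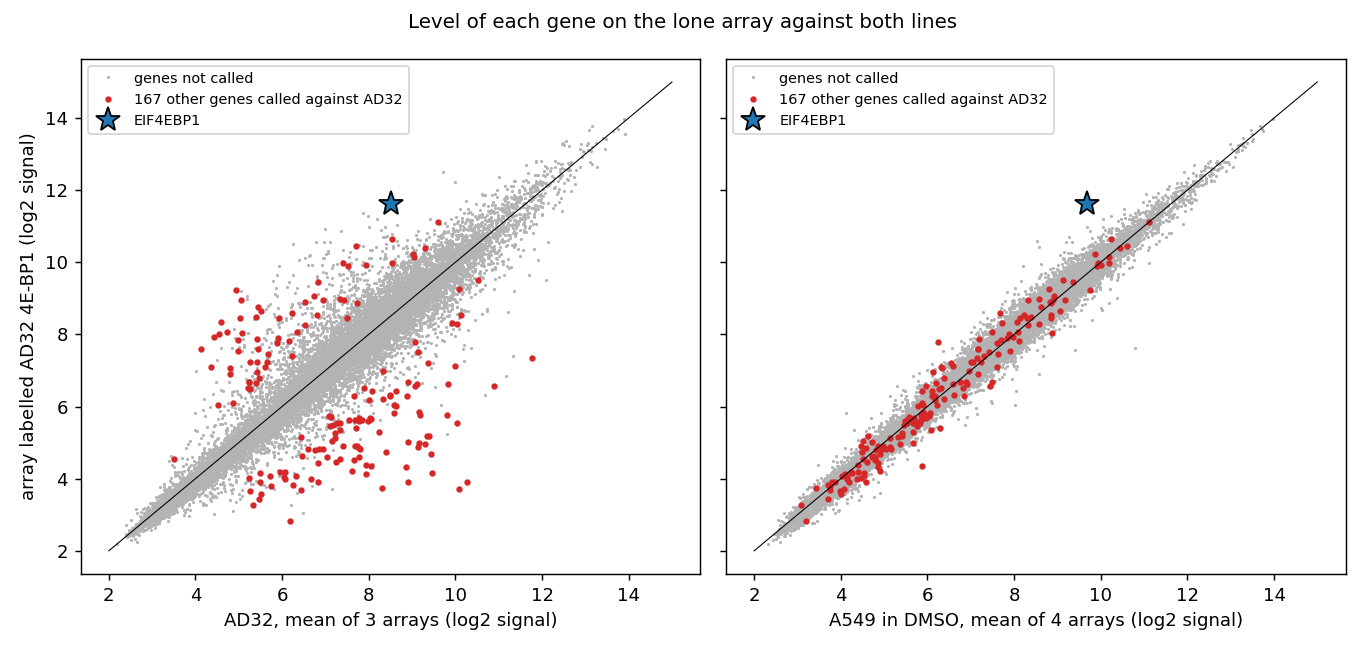
Each point is 1 gene, with its log2 signal on the lone array on the vertical axis and the mean of 3 AD32 arrays (left) or of 4 A549 DMSO arrays (right) on the horizontal axis. Red points are the genes called against AD32 other than EIF4EBP1, and the star is EIF4EBP1. Of genes called lower, 104 of 106 lie within 1 log2 unit of the A549 DMSO mean, and of those called higher 61 of 62. The exceptions are EIF4EBP1, SESN3 and ZNF185. Few genes of any kind lay at least 2-fold from A549 DMSO replicates 2, 3 and 4 (50, 200 and 196 of 18279).

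The genes that stood furthest below AD32 included MAGEB2, SERPINB5 and KRT7. MAGEB2, an X-linked cancer-testis antigen gene, was at 9.96, 10.09 and 10.19 in AD32 and at 3.73 on the lone array (82.0-fold lower, SE 0.35, limma adjusted p = 0.000105). SERPINB5, encoding maspin, an epithelial serpin, was at 10.83, 10.46 and 9.49 against 3.92 (81.0-fold lower, SE 0.44, adjusted p = 0.000331). Both genes were high on every AD32 array and below the lone array's lower quartile of 4.8 on the lone array, where signal above background was not shown. Of the 106 genes called lower, 39 were under that quartile on the lone array, whatever their level in AD32. They included MAGEB2, SERPINB5, GDA, CLTRN, TC2N, SERPINB7, SAMD9 and TSPAN8. Of the 62 called higher, 9 had an AD32 mean under that quartile. Folds of such genes are ratios of deposited signal and need not equal ratios of transcripts. A549 in DMSO was as low, with MAGEB2 at 3.78 to 4.44 and SERPINB5 at 3.68 to 4.26.

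KRT7, a simple-epithelium keratin, was at 11.84, 11.74 and 11.76 in AD32 and 7.35 on the lone array (21.5-fold lower, SE 0.20, limma adjusted p = 5.16e-05). The AD32 arrays were nearly level for KRT7, and the lone array lay inside the A549 in DMSO range of 7.00 to 7.40. SLPI, a secreted leukocyte protease inhibitor, was at 11.14, 10.80 and 10.71 in AD32 against 6.56 (20.0-fold lower). GDA, guanine deaminase, was at 10.76, 8.40 and 9.21 against 4.16 (39.3-fold lower). The 3 genes were far above the lone array on each AD32 array.

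The remaining members of the 12 with the widest gap fell by between 16.5-fold and 31.8-fold. CLTRN, the collectrin gene, fell 31.8-fold and TC2N, a C2-domain gene, 27.3-fold in signal, to 3.91 and 4.68. FSTL1 (a secreted follistatin-like glycoprotein), NID2 (a basement membrane nidogen) and NEO1 (neogenin, a receptor for netrins and repulsive guidance molecules) fell 22.4-fold, 16.5-fold and 18.3-fold. GALNT5, which starts mucin-type O-glycans, and F5, encoding coagulation factor V, fell 19.9-fold and 17.7-fold. For F5 the levels were 9.09, 9.63 and 9.29 in AD32, 5.19 on the lone array and 4.36 to 4.95 in A549 in DMSO, so the lone array lay just above A549.

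The genes furthest above AD32 included the receptor genes EPHA3, EPHA5 and NTRK3. EPHA3, an Eph receptor for ephrin-A ligands, was at 4.89, 4.97 and 4.92 in AD32 and 9.23 on the lone array (19.7-fold higher, SE 0.24, limma adjusted p = 0.000105). EPHA5, of the same family, was at 4.71, 4.49 and 4.40 against 8.01 (11.1-fold higher, SE 0.26, adjusted p = 0.000368). NTRK3, the receptor for neurotrophin-3, was at 4.74, 5.17 and 5.27 against 8.95 (14.9-fold higher, SE 0.28, adjusted p = 0.000331). Each was near the lower quartile on the AD32 arrays and well above it on the lone array and on the 4 A549 in DMSO arrays, where EPHA3 was at 9.42 to 9.95 and NTRK3 at 8.10 to 8.65.

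GALC, the lysosomal galactosylceramidase, was at 4.64, 4.26 and 4.85 in AD32 against 8.33 (13.4-fold higher, limma adjusted p = 0.000331). TRHDE, an enzyme that degrades thyrotropin-releasing hormone, rose 11.3-fold, and PART1, a long non-coding RNA gene, 11.1-fold, both in signal from AD32 means under the lower quartile. LRRCC1, a centrosomal gene, rose 10.8-fold, and HERC5, the ligase that attaches ISG15, 10.1-fold. The AD32 means of GALC, HERC5 and EPHA5 (4.58, 4.73 and 4.53) were also under that quartile, so their folds carry the same limit. P4HA3, a collagen prolyl hydroxylase subunit, BCHE (butyrylcholinesterase) and MSC, a basic helix-loop-helix repressor, rose 9.91-fold, 8.77-fold and 8.46-fold. EIF4EBP1 completed the 12 called genes with the widest gap, and was 16th by gap among all genes. FGL1, 2nd by gap (17.7-fold higher, limma adjusted p = 0.276), and KCNE4, 11th (9.43-fold higher, adjusted p = 0.148), were not called. Both passed with array weights and without A549 in DMSO replicate 1. LRRCC1 lost its call under 8 of 18 alternatives (highest adjusted p = 0.0986), including without AD32 replicate 1 or 2, A549 in DMSO replicate 3 or 4 or either A549 in discodermolide array.

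**Figure D3:**
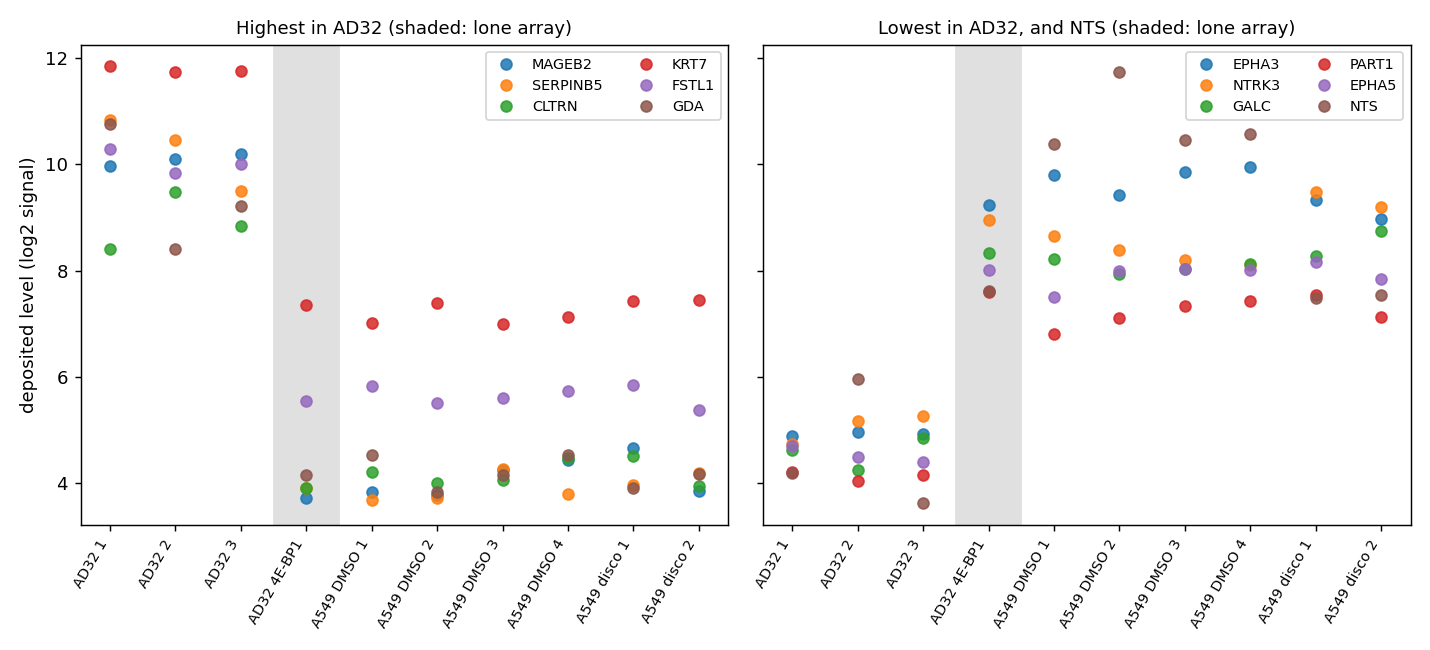
Deposited log2 signal on each array for 6 of the genes furthest below AD32 (left) and for 5 of those furthest above AD32 together with NTS (right), 1 point per gene and array, with the lone array shaded. Every gene on the left drops between the AD32 arrays and the shaded array to about its A549 level, and every gene on the right is higher there than in AD32, with NTS well below its level in A549 in DMSO.

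Lists of genes set apart in AD32 by earlier results on these same arrays are not independent evidence of direction. Of 12 such genes high in AD32, 10 were called lower on the lone array (0.58% of all genes). All 12 lay below all AD32 arrays (27.7% of all genes), with a median of -4.58 on the log2 scale. TXNIP, the thioredoxin-interacting alpha-arrestin, was at 10.88, 11.39 and 7.14 in AD32 and 5.23 on the lone array (adjusted p = 0.218). It passed without AD32 replicate 3 (60.1-fold lower, adjusted p = 0.000314). CEACAM6, an adhesion molecule, was at 12.24, 11.38 and 9.90 against 6.85 and passed without AD32 replicate 3 (31.1-fold lower, adjusted p = 0.0144). Of 14 genes low in AD32, 7 were called higher (0.339% of all genes). All 14 lay above all AD32 arrays (23.9% of all genes), with a median of 3.36. TRPA1, an irritant-sensing ion channel, was among them (7.86-fold higher, limma adjusted p = 0.0286), a call lost under 10 of 18 alternatives including without AD32 replicate 1 or 2, A549 in DMSO replicate 3 or 4 or either A549 in discodermolide array.

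The levels of the called genes on the lone array were set beside those of A549 in DMSO, which shares its treatment. Of 106 genes called lower, 104 lay within 1 log2 unit of the A549 in DMSO mean, and of 62 called higher, 61 did. Of all 18279 genes, 1613, 50, 200 and 196 lay at least 2-fold from A549 in DMSO replicates 1, 2, 3 and 4. The share of all genes within 1 log2 unit of the mean was not counted. Closeness to A549 is therefore not shown to be particular to the called genes. The 3 exceptions among the called genes were EIF4EBP1, SESN3 and ZNF185. SESN3, a stress-responsive sestrin, was at 4.35 on the lone array, below AD32 (7.81 to 8.38) and below all 4 A549 in DMSO arrays (5.06 to 6.83). ZNF185, a LIM-domain gene of the actin cytoskeleton, was at 7.80, between A549 in DMSO (6.11 to 6.41) and AD32 (8.75 to 9.24) and next to A549 in discodermolide (7.63 and 7.77).

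Position between the lines was then measured over 182 genes for which all AD32 arrays lay at least 1 log2 unit away from all A549 in DMSO arrays, 119 higher and 63 lower in AD32. The lone array had no part in choosing them, and the minimum distance was set after the data were seen. The lone array was nearer the A549 in DMSO mean for 179 genes and nearer the AD32 mean for 3. Its median position was 1.28% of the way from A549 in DMSO to AD32. It lay within the A549 in DMSO range for 103 genes, within the AD32 range for 0, between the ranges for 47 and beyond A549 on the side away from AD32 for 32. Over all genes, 15.1% lay above and 15.9% below all 4 A549 in DMSO arrays, and 23.9% above and 27.7% below all AD32 arrays. A place within the A549 in DMSO range was thus no more common among the 182 genes than among all genes. A549 in discodermolide stood at 5.97% and 9.02%. When each AD32 array was left out of both the choice of genes and the mean, it stood at 98.0%, 103.2% and 52.3% for replicates 1, 2 and 3. Those choices held 219, 206 and 483 genes. A549 in DMSO arrays treated alike stood between -0.19% and 10.8%, over 186 to 269 genes. These sets differ from the 182 genes used for the lone array, so the positions are not over the same genes.

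**Figure D4:**
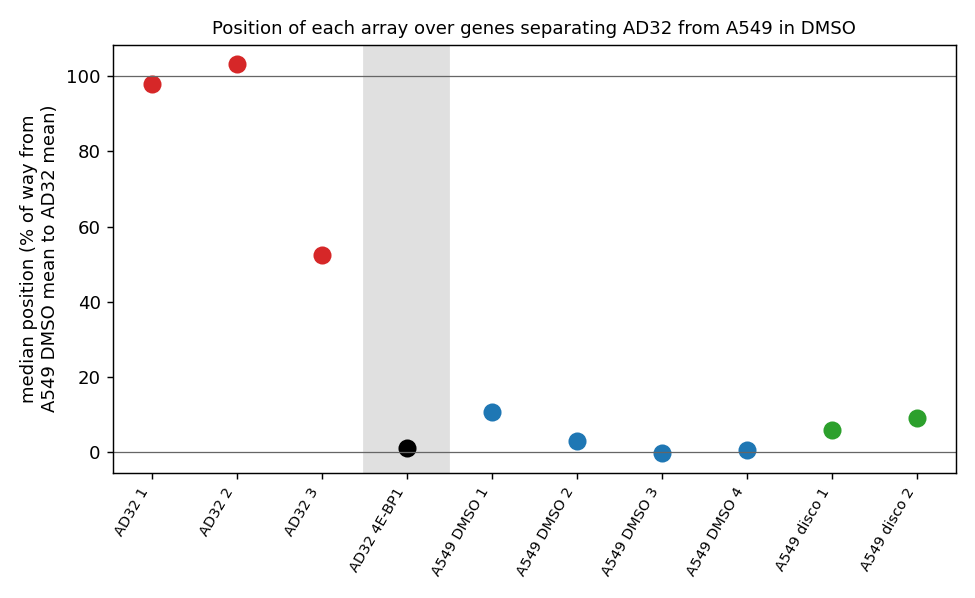
Median position of each array, in percent of the way from the A549 DMSO mean to the AD32 mean, over genes that separate the AD32 arrays from the A549 DMSO arrays, with AD32 and A549 DMSO arrays left out of their own reference. The shaded lone array stands at 1.28%, AD32 at 52.3% to 103.2% and the A549 arrays at 10.8% or lower. Each left-out array has its own set of 186 to 483 genes, whereas the lone array and A549 in discodermolide share 182.

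The 3 genes nearer AD32 were PLA2G4A, ZNF185 and NTS. PLA2G4A, the cytosolic phospholipase A2 that releases arachidonic acid, was at 8.68 on the lone array, 8.37 to 8.58 in AD32 and 9.68 to 10.81 in A549 in DMSO. It stood 87.8% of the way to AD32. NTS, which encodes the peptide neurotensin, was at 7.62, close to 7.48 and 7.54 in A549 in discodermolide, above AD32 (3.63 to 5.96) and below A549 in DMSO (10.38 to 11.74). Neither gene was called against AD32 (adjusted p = 0.96 and 0.186 by limma). NTS passed without AD32 replicate 2 (13.1-fold higher, adjusted p = 0.0276) and with array weights (adjusted p = 0.0233).

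Genes of mitosis were higher on the lone array than the AD32 mean, with 0 of 33 called, beside 0.919% of all genes. Of them 22 lay above all AD32 arrays, where 23.9% of all genes lay. The median difference was 2.75 on the log2 scale beside -0.03 over all genes. This difference followed the AD32 replicates: the list mean was 5.41, 6.37 and 9.64 on AD32 replicates 1, 2 and 3 and 9.79 on the lone array. Against AD32 replicate 3 alone the median was 0.17, with 23 genes above and 10 below. A549 in DMSO showed the same split, with 6.86 on replicate 1 and 9.85, 9.97 and 9.92 on the others. In bulk RNA, fewer cycling cells and less of these transcripts per cell cannot be told apart. MKI67, a marker of cycling cells, was at 5.51, 5.87 and 9.93 in AD32 and 10.55 on the lone array (adjusted p = 0.641).

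DNA replication genes separated the same arrays, with 0 of 37 called (0.919% of all genes), 21 above all AD32 arrays (23.9% of all genes), a median of 1.63 against the AD32 mean and 0.04 against AD32 replicate 3. MCM10, a replication initiation factor, was at 5.20, 5.34 and 9.09 in AD32 and 10.11 on the lone array, and passed with array weights (limma adjusted p = 0.0287). Replication-dependent histone genes had 0 of 34 called (0.919% of all genes) and a median of 0.80, or 0.00 against AD32 replicate 3. Their copies are similar in sequence, so single members are uncertain.

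**Figure D5:**
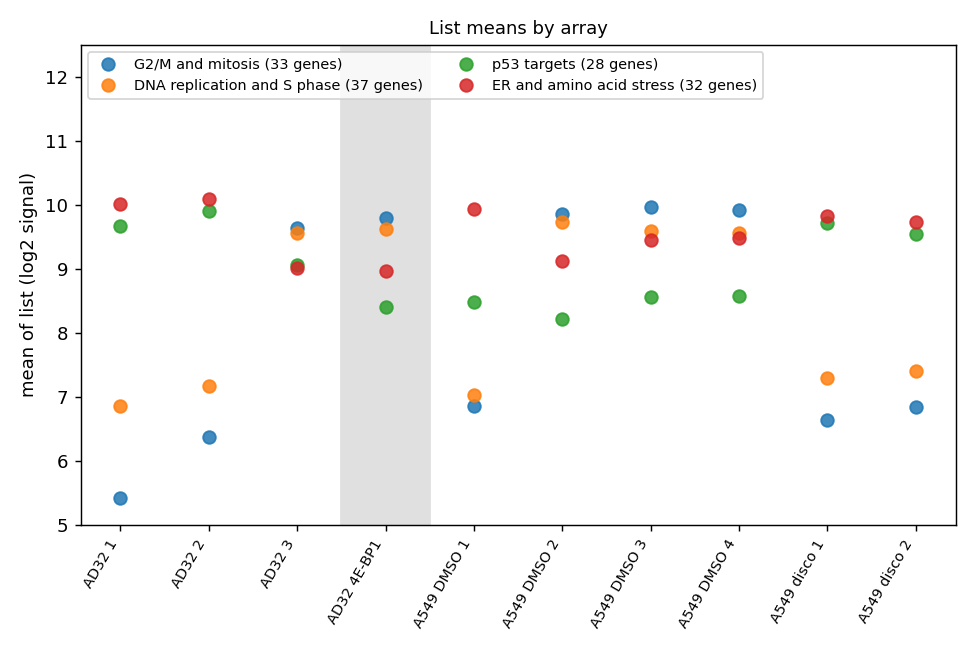
Mean log2 signal of 4 gene lists on each of the 10 arrays, 1 point per list and array, with the lone array shaded. Mitosis and replication genes are high on the shaded array, on AD32 replicate 3 and on A549 DMSO replicates 2 to 4, while the p53 target mean is lower on the shaded array than on any AD32 array.

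Of 28 targets of p53, 26 were below the AD32 mean on the lone array and 2 above it, beside 9828 and 8451 of all 18279 genes. Of the 28 targets, 23 lay below all AD32 arrays, beside 27.7% of all genes. The list median was -1.29, and 1 target was called lower, beside 0.58% of all genes. Against AD32 replicate 3 alone the median was -0.54, with 26 genes below. The gene called was DDB2, a DNA damage recognition factor, at 10.08, 10.15 and 10.03 in AD32 and 9.25 on the lone array (1.79-fold lower, SE 0.16, limma adjusted p = 0.0497). Its level was above the 4 A549 in DMSO arrays (8.77 to 8.86), and its call was lost under 13 of 18 alternatives, including without AD32 replicate 1 or 2, A549 in DMSO replicate 2, 3 or 4 or either A549 in discodermolide array. CDKN1A, encoding the cell cycle inhibitor p21, was at 10.28, 10.45 and 9.0 in AD32 and 8.0 on the lone array, below all of them. It did not pass (adjusted p = 0.237), though it did without AD32 replicate 3 (5.13-fold lower, adjusted p = 0.0173). MDM2, the ligase that degrades p53, was at 12.14, 12.57 and 11.74 against 10.55 (adjusted p = 0.148).

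Epithelial genes had 23 of 27 members below all AD32 arrays (27.7% of all genes), 1 called lower, KRT7 (0.58% of all genes), and a median of -0.49, or -0.45 against AD32 replicate 3. CDH1, encoding E-cadherin, was at 9.89, 10.40 and 9.81 in AD32 and 8.88 on the lone array (adjusted p = 0.333). ZEB1, a repressor of epithelial genes, was at 6.23, 6.86 and 6.76 and at 7.83, above all AD32 arrays (adjusted p = 0.115). It passed with array weights (2.29-fold higher, limma adjusted p = 0.0112). Mesenchymal genes as a list had 10 of 25 above and 5 below all AD32 arrays (23.9% and 27.7% of all genes), and 0 called (0.919% of all genes).

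Genes of endoplasmic reticulum and amino acid stress had 0 of 32 called, beside 0.919% of all genes. Of them 27 were below the AD32 mean, beside 9828 of all 18279 genes. The list median was -0.55, or 0.03 against AD32 replicate 3. The list mean was 8.97 on the lone array, the lowest of the 10 arrays, and 22 of 32 genes lay below all 4 A549 in DMSO arrays. Over all genes 15.9% lay below all 4. CHAC1, which degrades glutathione, was at 6.11 against 7.21 to 9.61 in AD32 and 6.50 to 8.88 in A549 in DMSO. DDIT3, encoding the stress factor CHOP, was at 6.05 against 6.89 to 11.09 and 6.20 to 9.81. Both were lower on the lone array than on the other 9 arrays, and neither was called against AD32 (adjusted p = 0.45 and 0.546). DDIT3 passed without AD32 replicate 3 (31.7-fold lower, adjusted p = 0.0472) and with array weights (adjusted p = 0.0299). CHAC1 passed with array weights (6.76-fold lower, limma adjusted p = 0.0199).

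Ribosomal protein genes had 26 of 42 members above and 2 below all AD32 arrays, beside 23.9% and 27.7% of all genes. Of the 42, 0 were called (0.919% of all genes), and the median was 0.27, or 0.15 against AD32 replicate 3. RPL34 was at 11.35, 11.62 and 11.67 in AD32 and 12.13 on the lone array (1.5-fold higher, adjusted p = 0.363). Many of these genes have processed pseudogenes, so single probe sets are uncertain. Ribosome biogenesis genes had 14 of 22 above all AD32 arrays (23.9% of all genes) and 0 called (0.919% of all genes). Their median was 0.62, or 0.08 against AD32 replicate 3.

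Single genes of other lists passed. CXCL1, a neutrophil-attracting chemokine, fell 9.20-fold (limma adjusted p = 0.0233), from 10.61, 9.83 and 9.03 in AD32 to 6.62. That call was lost without AD32 replicate 2 or A549 in DMSO replicate 3 or 4. SAMD9, an interferon-inducible gene, was at 8.59, 8.35 and 8.26 in AD32 and 4.75 on the lone array (12.6-fold lower, adjusted p = 0.00176), and HERC5 of the same list went the other way. BCL2L11, the pro-apoptotic BIM gene, rose 2.38-fold (adjusted p = 0.0497) and KLF4, a transcription factor, fell 3.04-fold (adjusted p = 0.04). Each of these last calls was lost without AD32 replicate 1 or 2, A549 in DMSO replicate 2, 3 or 4 or either A549 in discodermolide array.

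SERPINB7, a serpin of the same clade as maspin, fell 13.9-fold (limma adjusted p = 0.000633), and TSPAN8, a tetraspanin, 23.8-fold (adjusted p = 0.00366). UNC5D, a netrin receptor gene that lies among the chromosome 8 genes listed with EIF4EBP1, rose 3.17-fold (adjusted p = 0.00519). Of 23 genes of that neighbourhood 1 was called higher and 0 lower, beside 0.339% and 0.58% of all genes. Tubulin genes (26), microtubule-associated protein genes (27) and ABC transporter genes (13) had 0 called, beside 0.919% of all genes. ABCB1, the drug efflux pump P-glycoprotein, was at 4.48, 4.45 and 4.41 in AD32 and 4.21 on the lone array (adjusted p = 0.748). ABCG2, another efflux pump, was at 6.78, 7.39 and 8.44 in AD32 and 9.39 on the lone array (adjusted p = 0.184), and passed without AD32 replicate 3 (4.92-fold higher, adjusted p = 0.00276).

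Against A549 in DMSO as a group, 0 of 18279 genes passed by limma (0%), 208 had an unadjusted p under 0.05 (1.14%) and 3 passed with array weights. The lack of calls does not show equal levels, since in simulated data 0% of genes changed by 1 on the log2 scale and 75% of those changed by 2 were recovered in this comparison. This comparison and that with AD32 share the lone array. Against A549 in DMSO replicate 2 alone, the nearest array, 32 genes were at least 2-fold higher and 18 at least 2-fold lower on the lone array, a description of a pair of arrays. That replicate was chosen after the data were seen.

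Among the 32 higher genes, C3, the central complement component, was at 8.62 on the lone array against 6.48 on replicate 2, with 10.88 to 11.41 in AD32 and 10.04 and 10.97 in A549 in discodermolide. EIF4EBP1 came next, 2.11 above replicate 2 on the log2 scale. DCLK1, a microtubule-associated kinase, followed with 1.83, and its 7.62 lay near the 7.31 and 7.27 of A549 in DMSO replicates 3 and 4. CFI, complement factor I, was at 5.81 against 4.35, with 7.60 and 8.38 in A549 in discodermolide and 3.83 to 4.29 in AD32.

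Among the 18 lower genes, NTS differed most, by -4.11 on the log2 scale. The 3 fibrinogen chain genes FGB, FGG and FGA followed with -3.76, -3.71 and -3.64. For FGA replicate 2 itself was high, at 10.54 against 7.36, 8.20 and 8.16 on the other A549 in DMSO arrays, and the lone array was at 6.90, next to AD32 (6.58, 6.74 and 7.09). The lone array was thus below all A549 arrays for FGA.

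Blocks of neighbouring genes were also set side by side, over 10707 windows of 25 genes. In the window of chromosome 8 from CA13 to CCNE2, the lowest in AD32, the median AD32 level was -1.03 relative to A549 in DMSO and that of the lone array -0.25. In the window of chromosome 5 from RAD17 to AGGF1, the highest in AD32, the medians were 1.24 for AD32 and 0.08 for the lone array. Within the first window the lone array was below the A549 in DMSO mean for 19 of 25 genes, and within the second for 9 of 25. Over all genes its median difference from A549 in DMSO was -0.004. Both windows were picked for their AD32 levels, so the difference of the lone array from AD32 in them is no test. Gene order came from GRCh38.p14, and copy number was not measured.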

How the data were processed

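Total RNA was measured on 10 Affymetrix arrays, which gave 24308 probe sets. The authors produced the deposited log2 values in Affymetrix Expression Console, a tool that the submitters' processing notes name. The sources used here do not give its version, summarisation or normalization, and log2 was inferred from the range of the values. A table pairing probe sets with genes named 1 gene for 19262 probe sets, several for 1720 and none for 3326. Of 18279 genes, 740 had more than 1 probe set, and the one with the highest mean was used.

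Groups came from the labels, which call numbered samples biological replicates without saying how they were grown apart, so p-values measure the spread between these samples. Tests used limma 3.58.1 in R 4.3.3 (lmFit, eBayes) over 10 arrays and 4 groups, with 6 residual degrees of freedom, Benjamini-Hochberg adjusted two-sided p-values over all genes, and a threshold of 0.05. A called gene is one that passed. The lone array was assumed to vary like the other groups. On simulated data with 200 of 18279 genes changed, 0% of log2 changes of 1 and 73.5% of log2 changes of 2 against AD32 were recovered.

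Named genes were 10 fixed genes (EIF4EBP3 was not measured here), the 12 called genes per direction with the widest gap to AD32, members of the AD32 lists and up to 4 genes per list. The list members and tests were chosen with earlier results of these data known. AD32 replicate 3 and A549 in DMSO replicate 2 as single references, the gene windows, genes singled out against A549 or against all other arrays, and those given as list examples outside the rule, were chosen after their values were seen. The number of arrays limits the precision. Promoter sequences are from RefSeq.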

Additional observations from a re-analysis of the deposited data

Results flagged for a closer look

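A sample far from the others was looked for among the 4 A549 in DMSO arrays, for the 107 named genes and for 7 list means, in 114 tests. Chance flags about 1 in 20 groups, and 29 were found. AD32 and A549 in discodermolide have too few arrays for this test. A549 in DMSO replicate 1 was the array that stood apart in all of them except BCHE (8.48), ALDH1A1 (13.33) and NTS (11.74), set by replicate 2, and UNC5D (8.17), set by replicate 4.

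Replicate 1 was low for the mitosis list (mean 6.86) and the replication list (mean 7.02). The same held for their genes BIRC5 (7.20), KIF11 (6.42), CENPF (6.79), CDC20 (7.67), MCM10 (5.89), GINS4 (5.82) and GINS3 (7.36), for the histone gene H2AC17 (4.96) and for LMNB1 (7.71), the lamin B1 gene. Other low values of replicate 1 were LRRCC1 (6.91), EPHA5 (7.51), HERC5 (7.54), NOLC1 (9.40), AKR1B10 (11.71) and ACLY (11.86).

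Replicate 1 was high for EIF4EBP1 (10.23), MAP2 (7.90), KLF4 (7.69), MUC5B (8.20), TSPAN8 (4.01), TXNIP (5.61), CRYAB (8.20) and CD68 (10.71). For EIF4EBP1 this array is the one nearest to the array labelled AD32 4E-BP1. These arrays enter the comparison with AD32 through the shared spread.

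Probe sets without a gene name took no part in the gene comparisons. Of 3326, 5 passed the limma threshold against AD32, 1 higher and 4 lower, and 0 of 1720 probe sets with several genes did.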

How the results depend on the processing

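No called value changed direction over 18 alternatives. Further quantile normalization, median centring, averaging of probe sets per gene and a trended robust prior gave 153 to 173 genes called against AD32. The 168 genes called against AD32 (62 higher, 106 lower) became 107 (60 lower) without the genes lowest by mean, 1282 (593 and 689) with array weights, 13 (4 and 9) with the compared groups alone, 99 (35 and 64) with A549 in DMSO replicates 3 and 4 averaged and 65 (19 and 46) against a minimum fold of 1.5. Leaving out 1 array gave 99 to 656 called, 35 to 242 higher, 64 to 414 lower and 1029 to 2064 genes at least 2-fold outside AD32. All 168 genes were among the calls with array weights, without AD32 replicate 3 and without A549 in DMSO replicate 1. Calls against A549 in DMSO went from 0 to 3 with array weights. EIF4EBP1 kept 3.09 against AD32 with an adjusted p of 0.15 for the compared groups alone, and passed against A549 in DMSO with array weights (2.09, limma adjusted p = 0.00869). For the other named genes over 18 settings, 1739 values kept their status, most of them not called in the main fit either. Calls were lost in 85 values and gained in 68. Only 33 of these genes were called in the main fit, and 20 of the 33 were lost for the compared groups alone. No paired analysis was possible because the AD32 4E-BP1 array carries no replicate number. Arrays without detection calls limit low levels: 39 of the 106 lower genes were under the lone array's lower quartile. The cause of the changes in counts was not tested.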
